A study of Mus musculus with 12 samples.

Results

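The comparison described here asked whether the colon responded differently to dextran sulfate sodium (DSS) when myeloid cells lacked glutamine synthetase. It is 1 contrast, the interaction of genotype and treatment: the change with DSS in knockout mice minus the change with DSS in littermates, written (KO_DSS minus KO_H2O) minus (WT_DSS minus WT_H2O). All 12 libraries of the series entered it, 3 in each of 4 groups, and 23263 of the 40050 genes in the table had a mean normalized count of at least 10 and were tested. KO_DSS and KO_H2O are colon tissue of Glul∆Lyz2 mice on DSS and on water. WT_DSS and WT_H2O are colon tissue of their Glul f/f littermates on DSS and on water. The mice of both genotypes therefore carry floxed Glul alleles, and the label WT stands for littermates without the deletion, not for mice with unmodified alleles. The dose and length of DSS treatment, the age and the sex of the mice are not stated in the sources used, and the labels do not say that each library is 1 animal. The p-values therefore measure the spread between these libraries, which may be in part technical.

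Glul encodes glutamine synthetase, which makes glutamine from glutamate and ammonia. The Lyz2 promoter is active in macrophages, monocytes and neutrophils, so Glul of epithelium, stroma and lymphocytes is not targeted and its transcripts stay in RNA of the whole colon. DSS injures the epithelium when taken with drinking water. The injury brings microbes into contact with the mucosa and draws in neutrophils and monocytes, which is followed by interferon signalling, loss of crypt stem cells and regrowth of the epithelium.

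The libraries held between 14.7 and 41.2 M reads assigned to genes (M, mega). KO_DSS was the shallowest group, with 31.0, 19.8 and 14.7 M reads. The KO_H2O libraries had 32.0, 41.2 and 32.2 M, those of WT_DSS 30.4, 30.5 and 30.4 M and those of WT_H2O 27.1, 36.7 and 33.0 M. The first principal component held 35.1% of the variance and separated DSS from water libraries, and the second, with 15.3%, set library KO_DSS 3 apart from the other 11, so values without that library are given beside gene and list values that it moved by more than 1.5 times. Reads of rRNA-like genes made up 13.1% and 8.36% of KO_H2O 1 and 3, against 1.26% to 4.52% of the other 10 libraries, and the 10 most abundant genes held 28.01% and 31.6% of their reads, against 10.4% to 21.0% elsewhere. KO_H2O enters every interaction, and the part of these shares in the results was not tested. Epcam, which marks epithelium, lay between 7885 and 16193 normalized counts in every library. Glul itself, the targeted gene, had 4225, 3273 and 6723 normalized counts in KO_DSS, 1655, 5618 and 2725 in KO_H2O, 7372, 7895 and 18267 in WT_DSS and 7852, 7709 and 2261 in WT_H2O. All KO_DSS libraries lay below all WT_DSS libraries, while the water groups overlapped. Knockout minus littermate was -1.17 on DSS (exact two-sided permutation p = 0.1, the smallest that 3 against 3 libraries allow) and -0.81 on water (exact permutation p = 0.3), both on the log2 scale. The Glul interaction was -0.36 ± 0.80 (log2 difference ± standard error), with a 95% interval of -2.10 to 1.38, -0.65 without KO_DSS 3, and its sign depended on the library left out. Lyz2, the lysozyme gene whose promoter drives the deletion, gave 0.40 ± 0.89, and 0.65 without KO_DSS 3.

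The change with DSS had the same direction in both genotypes for most tested genes. No gene passed the threshold of an adjusted p under 0.05 for the interaction in limma with Benjamini-Hochberg adjustment (0 of 23263, 0%), and the smallest adjusted p was 0.9998. At an unadjusted p under 0.05 there were 640 genes (2.75%), of which 185 (0.795%) had a higher and 455 (1.96%) a lower response in knockout mice. With quantile normalization those counts were 308 and 365. The other tool that was run, limma voom on the recovered reads, also called 0 genes, with 574 at an unadjusted p under 0.05. Without KO_DSS 1 the test called 2 genes, Gm3776 and Gemin4, and without KO_DSS 2 it called 2 others, Gm16534 and Gm26532. Without KO_DSS 3 it called 0, with 1212 genes at an unadjusted p under 0.05. By contrast, 6419 genes (27.6%) responded to DSS on average over the genotypes, 3020 (13%) of them higher and 3399 (14.6%) lower with DSS. Without KO_H2O 1 that number was 4150. The average response has a smaller standard error than the interaction, 0.18 against 0.36 for the gene Ets1. The numbers of genes called for them therefore do not compare like with like. The response in knockout mice and the response in littermates share no library, and across the tested genes, which are not independent of each other, they had a Pearson correlation of 0.684 and the same sign in 77.6% of genes.

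**Figure D1:**
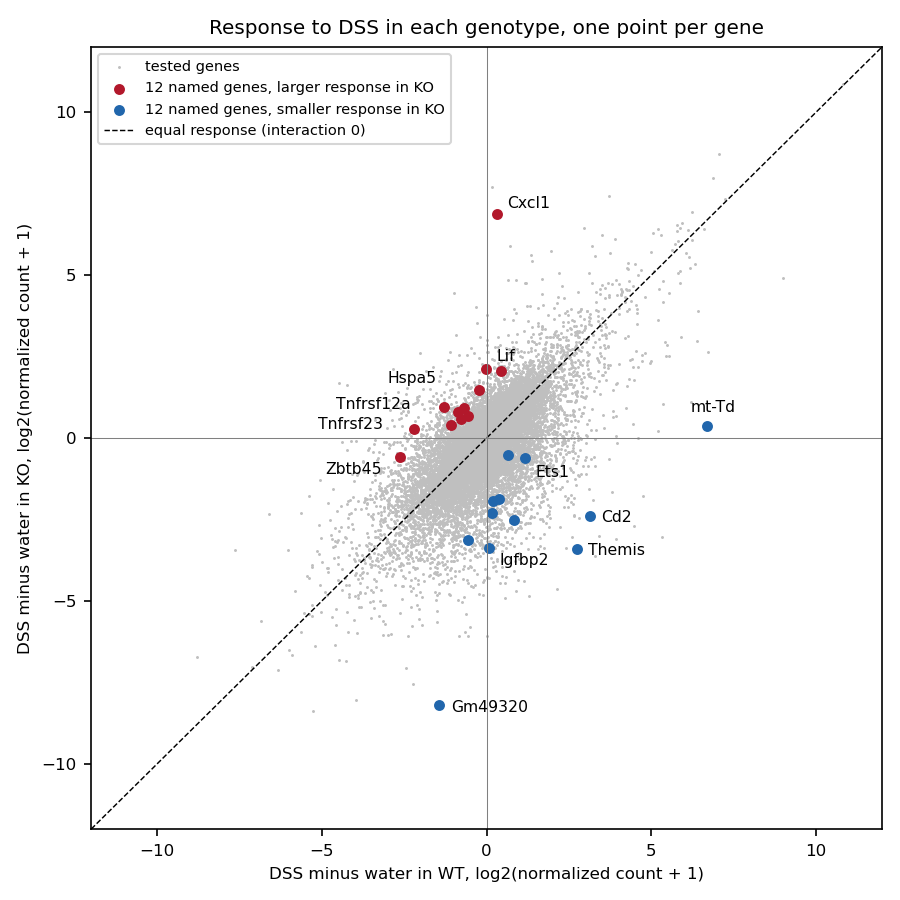
Change with DSS in knockout colon (vertical axis) against change with DSS in littermate colon (horizontal axis), both as differences of mean log2(normalized count + 1) over 3 against 3 libraries, with 1 point per tested gene. The 23263 points scatter about the dashed line of equal response, with a Pearson correlation of 0.684. Red and blue points are the 24 genes with the smallest interaction p-values among named genes. Cxcl1, for example, lies at 6.88 in knockout mice and 0.31 in littermates.

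The design left wide intervals. The median standard error of an interaction was 0.62 on the log2 scale, and the median 95% interval reached 1.35 to either side of the estimate, which is a factor of 2.54. For 3743 genes (16.1% of those tested) the interval lay wholly within 1 log2 unit of 0, that is, within a 2-fold difference of responses. For the other genes the interval included larger differences, which were not detectable at this depth and number of libraries unless they passed the test. The spread within groups was larger in knockout libraries, with a median standard deviation on the log2 scale of 0.53 in KO_DSS, which compares with 0.47 in WT_DSS, and of 0.40 in KO_H2O, which compares with 0.32 in WT_H2O. In the main fit the plot of p-values held fewer small values than an even spread would give, 640 in the lowest bin against a mean of 1163 per bin. This shortage depended on the setting. The number of genes at an unadjusted limma p under 0.05 was 1212 without KO_DSS 3 and 1693 with sample weights.

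**Figure D2:**
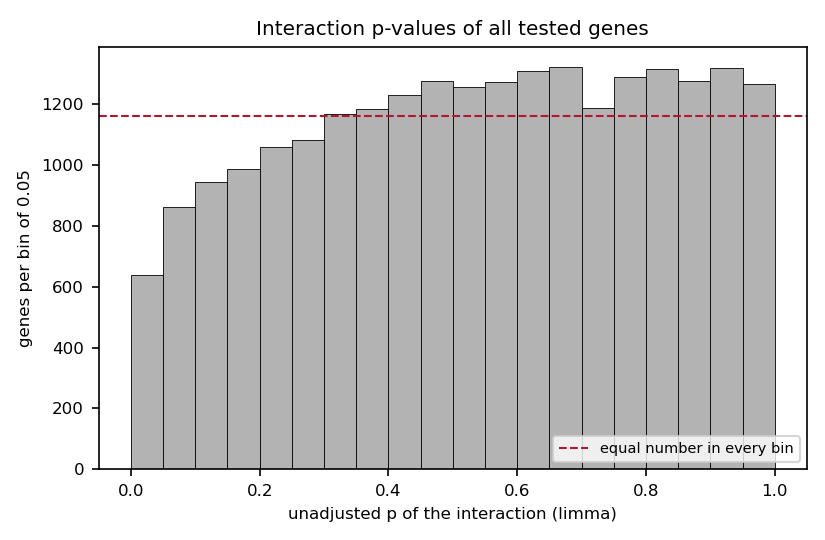
Number of genes (vertical axis) in each bin of 0.05 of the unadjusted limma p of the interaction (horizontal axis), for 23263 tested genes. The lowest bin holds 640 genes, and the dashed line marks 1163, the number in every bin if the p-values were spread evenly.

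Among genes that passed the test for the average DSS response, the response of knockout mice was slightly larger in either direction. The 3020 genes that rose had a median interaction of 0.12, and 62.7% of them were positive against 47.5% of all tested genes. Their median response was 1.01 in knockout mice and 0.90 in littermates. The 3399 genes that fell had a median interaction of -0.13 with 39.4% positive, and their median response was -1.27 in knockout mice and -1.10 in littermates. Leaving out any 1 library left the medians between 0.02 and 0.24 for genes that rose and between -0.30 and 0.00 for genes that fell. These shifts are small beside the median standard error of 0.62 for 1 gene, and the part of the larger spread in knockout libraries in them was not tested.

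The gene with the largest estimate among the 12 named with a higher response in knockout mice was Cxcl1, the chemokine that draws neutrophils to injured tissue (GRCm38 chromosome 5, 90891241 to 90893115, plus strand). It had 381, 119.6 and 465 normalized counts in KO_DSS, 2.60, 2.64 and 0 in KO_H2O, 0, 17.4 and 10.7 in WT_DSS and 2.78, 4.82 and 4.12 in WT_H2O. The KO_DSS libraries stood above all other 9, which had at most 17.4 normalized counts. The group means were 1.75 in KO_H2O, 9.38 in WT_DSS and 3.90 in WT_H2O, all under the filter of 10. Cxcl1 was therefore tested only because of its level in KO_DSS, and its place among the named genes supports nothing. The interaction was 6.57 ± 1.49 with a 95% interval of 3.32 to 9.81 and an unadjusted limma p of 0.00087, which did not pass after adjustment. It was 6.19 without KO_DSS 3 and 2.52 in the authors' FPKM table. That table holds log2(FPKM + 1), a scale on which differences of rare genes are smaller, and its values are given for genes whose estimate it changes by more than 1.5 times. Cxcl5, another neutrophil chemokine, had 1563, 519 and 131 normalized counts in KO_DSS, against at most 102 in the other libraries, with an interaction of 7.54 ± 2.51 and 2.93 in the FPKM table. The KO_DSS and WT_DSS libraries of Cxcl5 did not overlap, although WT_DSS 2 came close to the lowest of KO_DSS. Ccl7, a monocyte chemokine, had 173, 209 and 269 in KO_DSS, 16.5, 23.2 and 4.80 in KO_H2O, 56.4, 81.4 and 27.2 in WT_DSS and 27.8, 16.5 and 9.06 in WT_H2O, with an interaction of 2.42 ± 0.88. As a list, however, the chemokines were divided, with 14 positive and 12 negative interactions of 26 tested and a median of 0.21 (-0.21 to 0.57 with 1 library left out). The lowest was Ccl5, a chemokine made by T and NK cells, at -4.18 ± 1.76 and -0.85 in the FPKM table.

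The Cxcl1 promoter is printed because induction of this chemokine is classically tied to NF-kB. The 300 bases run from 250 before to 50 after the annotated start (RefSeq, GRCm38.p6, chr5:90890995-90891294, plus strand), and capitals mark the stretch that matches the NF-kB consensus on both strands. That consensus was found in 8.46% of all 32851 mouse promoters of this length, and in 5 of the 19 chemokine genes that had a promoter in the table, so a match is a description of the sequence and not a site of binding.
Cxcl1: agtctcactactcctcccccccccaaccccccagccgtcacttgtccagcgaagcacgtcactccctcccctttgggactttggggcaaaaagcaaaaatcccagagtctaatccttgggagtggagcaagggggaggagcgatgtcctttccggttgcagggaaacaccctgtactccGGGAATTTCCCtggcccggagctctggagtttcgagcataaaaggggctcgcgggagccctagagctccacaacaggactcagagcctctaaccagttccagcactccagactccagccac

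Inflammatory mediators other than chemokines had mostly positive interactions. Of 21 listed members, 14 passed the filter on low counts. Of these cytokines and enzymes, 13 had a positive and 1 a negative interaction, against 47.5% positive over all genes. Il22 had no reads in KO_H2O, WT_DSS or WT_H2O, so it passed the filter through KO_DSS alone. The tally therefore describes the members that passed and supports nothing. The median was 1.25 (1.09 with genes absent from a whole group set to the limit of 3 reads), 0.89 to 1.54 when 1 library was left out, and 1.40 without KO_DSS 3. None passed the test, and 1 had an unadjusted p under 0.05. That gene was Lif, a cytokine of the interleukin 6 family, with 327, 458 and 524 normalized counts in KO_DSS, 124, 103 and 73.0 in KO_H2O, 111, 63.1 and 186 in WT_DSS and 137, 74.3 and 130.2 in WT_H2O. All 3 KO_DSS libraries lay above all 9 others, which overlapped each other. The Lif interaction was 2.13 ± 0.59, with a 95% interval of 0.85 to 3.41, and 1.32 in the FPKM table. The exception in the list was Il1rn, which encodes the antagonist of the interleukin 1 receptor and had an interaction of -1.55 ± 0.90. The KO_H2O libraries of Il1rn were spread from 156 to 1152 normalized counts, against 148 to 159 in WT_H2O. Nos2, the inducible nitric oxide synthase, rose with DSS on average (log2 change 5.81, limma adjusted p = 0.000397) and had an interaction of 1.19 ± 1.14, or 1.89 without KO_DSS 3.

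Of 19 neutrophil markers in the table, 10 passed the filter on low counts. A marker that is near 0 outside KO_DSS, such as S100a9, could pass through that group alone, so the following tally describes the markers that passed and supports nothing. Of these, 9 had a positive interaction, with a median of 1.93 (1.22 to 2.54 with 1 library left out, 1.69 without KO_DSS 3), but 0.50 in the FPKM table. S100a9, a subunit of calprotectin, had 162, 9.51 and 121 normalized counts in KO_DSS, 0, 0 and 3.29 in WT_DSS and 0 in all water libraries. Its fitted interaction of 5.19 ± 1.71 depends on the pseudocount, since both water groups were at 0, and was 2.41 in the FPKM table. Mmp9, a matrix protease of neutrophil granules, had 86.3, 17.7 and 42.3 in KO_DSS, 23.4, 33.2 and 24.97 in KO_H2O, 0, 0 and 18.9 in WT_DSS and 49.96, 17.2 and 23.9 in WT_H2O, with an interaction of 3.96 ± 1.49 and 0.49 in the FPKM table. WT_DSS 1 and 2 were at 0 and KO_DSS 1 was the highest library, while the other libraries overlapped. The summed level of the list ran over 1466 to 8804 normalized counts in KO_DSS, 48.6 to 625 in KO_H2O, 343 to 3040.1 in WT_DSS and 65.1 to 171 in WT_H2O, with 80.7% of it from Ly6g. Ly6g, the surface antigen used to sort mouse neutrophils, had an interaction of 0.30 ± 2.48 (0.89 without KO_DSS 3, 0.74 in the FPKM table) and a DSS response of 6.40 in knockout mice and 6.10 in littermates. In whole tissue, more or fewer cells of a type and more or less RNA per cell cannot be told apart. The 25 tested markers of monocytes and macrophages, which like neutrophils are targeted by the deletion, had a median of 0.31 with 14 positive. The sign of this median changed when 1 library was left out (-0.24 to 0.49).

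Receptors of the tumour necrosis factor family were among the named genes. Tnfrsf12a, the receptor for the cytokine TWEAK (GRCm38 chromosome 17, 23675445 to 23677468, minus strand), had 176, 81.5 and 138 normalized counts in KO_DSS, 78.9, 58.0 and 56.7 in KO_H2O, 46.3, 54.0 and 74.1 in WT_DSS and 170.2, 119 and 134 in WT_H2O. DSS libraries lay above water libraries in knockout mice and below them in littermates, with no overlap in either genotype. The interaction was 2.24 ± 0.51 with a 95% interval of 1.14 to 3.35 and an unadjusted limma p of 0.000857, and 1.46 in the FPKM table. Tnfrsf23, a mouse decoy receptor for TRAIL, had 109.7, 65.2 and 89.2 in KO_DSS, 66.8, 65.4 and 82.6 in KO_H2O, 27.8, 16.6 and 36.2 in WT_DSS and 170.2, 152 and 70.9 in WT_H2O. Its knockout groups overlapped, while WT_DSS lay wholly below WT_H2O, and the interaction was 2.49 ± 0.61 (0.93 in the FPKM table).

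**Figure D3:**
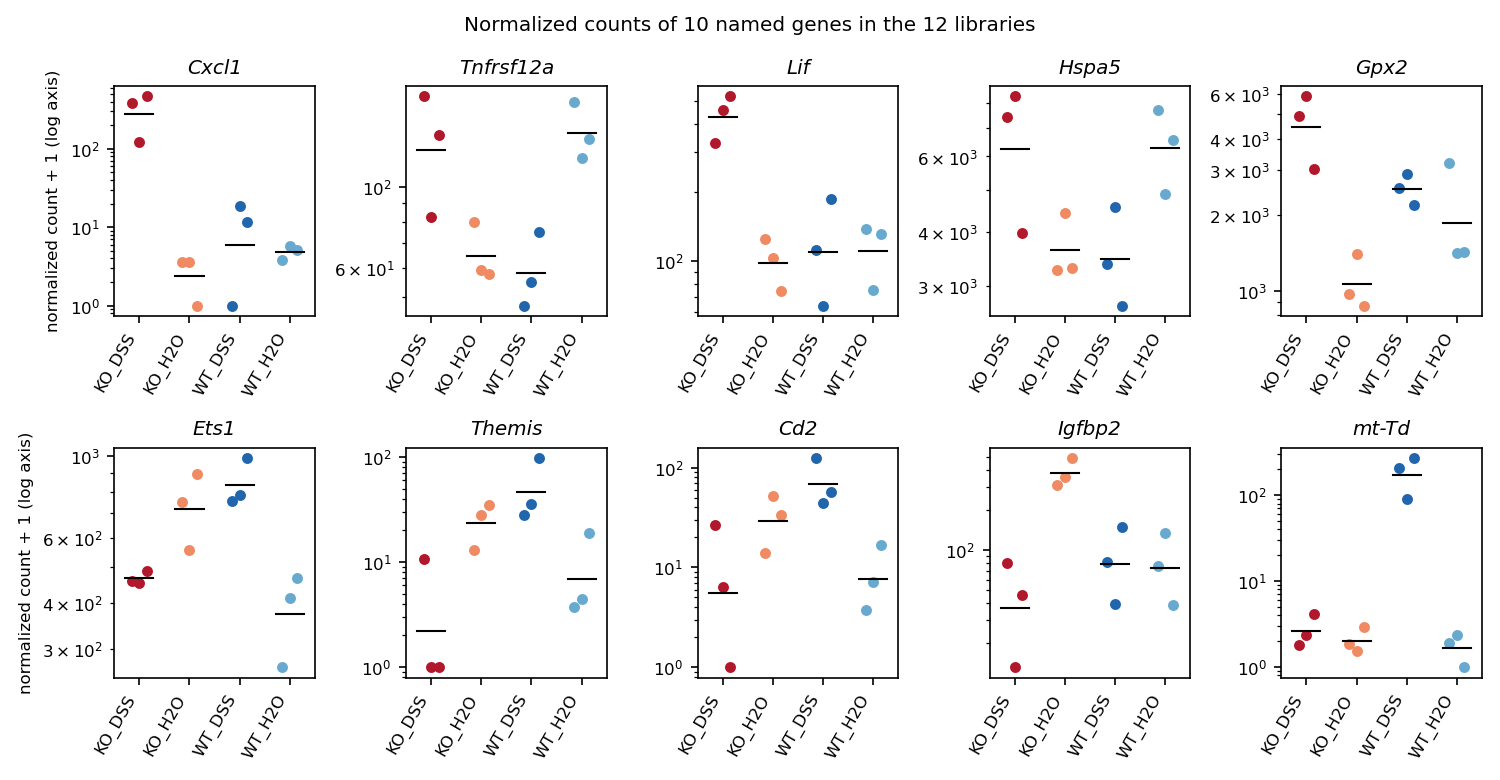
Normalized count plus 1 on a log axis (vertical) of 10 named genes in KO_DSS, KO_H2O, WT_DSS and WT_H2O (horizontal), with 1 point per library and a bar at the mean of the 3 log values. Cxcl1 and Lif are high in the 3 KO_DSS libraries, Igfbp2 in KO_H2O and mt-Td in WT_DSS, while Tnfrsf12a and Ets1 go opposite ways with DSS in the genotypes.

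Genes of the unfolded protein response, which raises the folding capacity of the endoplasmic reticulum, had mostly positive interactions, and none passed the test. Of 23 tested genes, 21 had a positive interaction, against 47.5% of all tested genes, with a median of 0.59. It was 0.27 to 0.87 with 1 library left out, 0.27 without KO_DSS 2 and 0.87 without KO_DSS 3. The median DSS response was 0.74 in knockout mice and 0.01 in littermates. The list score (mean log2 level relative to the mean of the 12 libraries) was -0.01, 1.01 and -0.32 in KO_DSS. In KO_H2O this score was -0.21, -0.30 and -0.35, in WT_DSS 0.04, -0.02 and 0.07 and in WT_H2O 0.17, -0.18 and 0.07. KO_DSS 2 thus stood above all other libraries, and KO_DSS 3 lay among the KO_H2O libraries. Hspa5, the main chaperone of this compartment (GRCm38 chromosome 2, 34771970 to 34777547, plus strand), had 7411, 8277 and 3977 normalized counts in KO_DSS, 3264, 4426 and 3307 in KO_H2O, 3366, 4573 and 2696 in WT_DSS and 7711, 4903 and 6536 in WT_H2O. KO_DSS 1 and 2 were high and KO_DSS 3 fell among the KO_H2O libraries, whereas all WT_DSS libraries were below all WT_H2O libraries. The interaction was 1.64 ± 0.43 (0.70 to 2.58), and 1.97 without KO_DSS 3. Pdia4, a disulfide isomerase, had an interaction of 0.87 ± 0.32. Spcs1, a subunit of the signal peptidase that trims secreted proteins and no member of the list, had 1.27 ± 0.39. Trib3, a stress-induced pseudokinase, and Sel1l, an adaptor for degradation of misfolded proteins, were the members with negative values (-1.84 and -0.16).

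The ER stress element, CCAAT and CCACG with the fixed spacing seen in the printed matches and searched on both strands, is the sequence through which ATF6 and its partners act on chaperone genes. It was found in 39 of 32851 promoters (0.119%) and in 7 of the 21 genes of the list that had a promoter in the table. The matches are printed to show how alike they are across these genes, with the fixed letters in capitals (RefSeq, GRCm38.p6).
Hspa5, chr2:34772025-34772043, plus strand: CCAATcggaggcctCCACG
Hsp90b1, chr10:86705638-86705656, minus strand: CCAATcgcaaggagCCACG
Hsp90b1, chr10:86705533-86705551, plus strand: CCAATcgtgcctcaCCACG
Pdia6, chr12:17266491-17266509, plus strand: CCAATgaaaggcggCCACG
Calr, chr8:84847075-84847093, plus strand: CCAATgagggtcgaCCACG
Canx, chr11:50325800-50325818, minus strand: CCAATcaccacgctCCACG
Dnajc3, chr14:118937827-118937845, plus strand: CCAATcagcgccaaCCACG
Creld2, chr15:88819520-88819538, minus strand: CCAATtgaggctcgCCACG
The 7 genes with a match had interactions between 0.41 and 1.64 with a median of 0.67, and 7 of 7 were positive. The 14 genes without a match in this window had a median of 0.44, with 12 positive and a range of -1.84 to 1.25. These ranges overlap, and the share of genes with the element reflects the choice of the list.

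The other genes named for a positive interaction were spread over functions, and their sign was fixed by that choice. Gpx2, the glutathione peroxidase of the gut epithelium, had 4921, 5885 and 3050.2 normalized counts in KO_DSS, 971, 1401 and 874 in KO_H2O, 2549.7, 2896 and 2179.9 in WT_DSS and 3204, 1418 and 1425 in WT_H2O. KO_DSS lay wholly above KO_H2O, and the littermate groups overlapped, for an interaction of 1.63 ± 0.49. Gpx2 is also on the list of Nrf2 targets, where Nqo1, a quinone reductase, had the opposite sign at -1.21 ± 0.74, with a DSS response of -1.93 in knockout mice and -0.72 in littermates. Of that list 12 of 17 were positive, against 47.5% of all genes, with a median of 0.27 (-0.07 to 0.42 with 1 library left out). Tinagl1, a protein of the extracellular matrix, had 2435, 2720.3 and 1959 in KO_DSS, 1648, 1192 and 2001 in KO_H2O, 963, 1324 and 922 in WT_DSS and 1779, 1959 and 1654 in WT_H2O, with an interaction of 1.34 ± 0.33. The knockout groups overlapped slightly and WT_DSS was wholly below WT_H2O. Srm, which makes spermidine, had an interaction of 1.46 ± 0.44, Ywhaq, a 14-3-3 adaptor protein, 1.72 ± 0.45, and Pja1, a ubiquitin ligase, 1.59 ± 0.47. Zbtb45, a zinc finger protein, had 55.5, 25.7 and 56.8 normalized counts in WT_DSS against 270.1, 298 and 252 in WT_H2O, with overlapping knockout groups, and an interaction of 2.04 ± 0.53 (0.90 in the FPKM table).

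Of 26 genes of regenerating epithelium, 20 had positive interactions with a median of 0.50 (0.33 to 0.93 with 1 library left out, 0.93 without KO_DSS 3). Over all tested genes 47.5% were positive, which is the share to set beside each tally of this paragraph. Ereg, a growth factor for the EGF receptor, had 1222, 1381 and 5839 normalized counts in KO_DSS, 288, 284 and 352 in KO_H2O, 380.2, 387 and 717 in WT_DSS and 316, 145 and 431 in WT_H2O. KO_DSS lay above all other libraries, and KO_DSS 3 was far above the rest, so that the interaction of 1.999 ± 0.79 was 1.28 without it. Areg, its close relative, rose with DSS on average (log2 change 1.58, limma adjusted p = 0.00544), with an interaction of 1.37 ± 0.65. Cell cycle genes had a median of 0.80 with 26 of 28 positive (0.35 to 1.29 with 1 library left out), led by Rrm2, a subunit of ribonucleotide reductase, at 1.33 ± 0.57. Replication-dependent histone genes had 21 of 23 positive with a median of 0.62 (0.20 to 1.25 with 1 library left out, 0.20 without WT_DSS 4, 1.25 without WT_DSS 1 and 1.01 without KO_DSS 3), although their median DSS responses were alike, -1.47 in knockout mice and -1.49 in littermates. WT_DSS 1 stood apart from the other WT_DSS libraries in cell cycle genes, with a list score (mean log2 level relative to the mean of the 12 libraries) of 1.05 against -0.75 and -0.62. Of 19 stem cell genes of the crypt, 12 fell with DSS on average, against 14.6% of all genes, and their median interaction was 0.30 (0.11 without KO_DSS 3). Lgr5, the receptor that marks these cells, had 2.42, 89.7 and 0 normalized counts in KO_DSS, 289, 204 and 372 in KO_H2O, 43.7, 29.1 and 127 in WT_DSS and 398, 440.2 and 225 in WT_H2O. DSS libraries were below water libraries in both genotypes, and the interaction of -2.76 ± 1.75 was -1.38 without KO_DSS 3 and 0.02 in the FPKM table.

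Lymphocyte genes had mostly negative interactions. Of 25 tested T and NK cell markers, 23 had a lower response in knockout mice, while 47.5% of all tested genes had a higher one. The median interaction of the list was -1.71. The median was -2.09 to -1.30 with 1 library left out and was -1.30 without KO_DSS 3, but only -0.29 in the FPKM table. None passed the test, and 8 with a negative interaction had an unadjusted p under 0.05, against 1.96% of all genes in this direction. The median DSS response of the list was -0.43 in knockout mice and 1.19 in littermates. Most of these genes were rare in whole colon, and the summed level of the list ran over 1174 to 2362 normalized counts in KO_DSS, 1688 to 2325 in KO_H2O, 2526 to 3383 in WT_DSS and 2637 to 2816 in WT_H2O.

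Ets1, a transcription factor of lymphocytes and endothelium (GRCm38 chromosome 9, 32636221 to 32757820, plus strand), is not on the list but had a similar sign at a higher level. It had 458, 452 and 487 normalized counts in KO_DSS, 747, 555 and 892 in KO_H2O, 752, 781 and 987 in WT_DSS and 267, 412 and 466 in WT_H2O. DSS libraries lay below water libraries in knockout mice and above them in littermates, with no overlap in either genotype. The interaction was -1.79 ± 0.36 with a 95% interval of -2.58 to -0.99 and an unadjusted limma p of 0.000368. Themis, a signalling protein of the T lineage that is not on the list either, had 9.68, 0 and 0 in KO_DSS, 12.1, 26.9 and 33.6 in KO_H2O, 26.9, 34.9 and 97.2 in WT_DSS and 2.78, 3.44 and 18.1 in WT_H2O. It followed the same pattern without overlap, but at low counts, and its interaction of -6.16 ± 1.46 was -0.25 in the FPKM table. Cd2, an adhesion molecule of T and NK cells, had 25.8, 5.44 and 0 in KO_DSS, 13.0, 51.7 and 32.6 in KO_H2O, 124, 43.2 and 56.0 in WT_DSS and 2.78, 6.19 and 15.7 in WT_H2O. WT_DSS lay wholly above WT_H2O and the knockout groups overlapped, for an interaction of -5.54 ± 1.51 and -1.50 in the FPKM table. Cd4, the co-receptor of helper T cells, had an interaction of -2.23 ± 0.83 (-1.15 in the FPKM table). Il7r, the interleukin 7 receptor, had -1.996 ± 0.75 (-0.76 in the FPKM table).

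B and plasma cell genes varied widely between libraries of the same group. Of these genes, 15 of 19 had negative interactions, while 47.5% of all genes were positive. The list median was -2.52, with a range of -3.97 to -1.54 with 1 library left out, -1.54 without KO_DSS 3, and -0.91 in the FPKM table. The list score was 1.06, -1.91 and -1.95 in KO_DSS, -0.98, 1.91 and 1.26 in KO_H2O, 0.90, 0.34 and 0.36 in WT_DSS and -0.39, -1.19 and 0.58 in WT_H2O. KO_DSS 1 was high and KO_DSS 2 and 3 were low, and KO_H2O 1 was low beside high KO_H2O 2 and 3, so the groups overlapped. Cd22, an inhibitory receptor of B cells, had 127, 2.72 and 4.70 normalized counts in KO_DSS, 21.7, 306 and 216 in KO_H2O, 209, 101 and 31.3 in WT_DSS and 14.8, 2.06 and 64.3 in WT_H2O, with an interaction of -5.63 ± 2.10 and -1.28 in the FPKM table. Genes of dendritic cells and MHC class II had 19 of 19 negative, while 47.5% of all genes were positive. Their median was -1.17 (-1.59 to -0.69 with 1 library left out, -0.54 in the FPKM table). Their list score was 0.06, 0.49 and -0.93 in KO_DSS and -0.60, 1.04 and 0.12 in KO_H2O. It was 1.34, 0.07 and 0.08 in WT_DSS and -0.22, -1.12 and -0.33 in WT_H2O. The knockout groups overlapped, as did KO_DSS and WT_DSS, while WT_DSS lay above WT_H2O. Batf3, a transcription factor of cross-presenting dendritic cells, had an interaction of -3.09 ± 1.13 (-0.59 in the FPKM table). H2-DMb2, which loads peptides on MHC class II, had -2.69 ± 1.22 (-1.61 in the FPKM table).

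Genes of the enteric nervous system had 0 positive and 23 negative interactions, while 47.5% of all genes were positive. The list median was -1.40 (-2.40 to -0.91 with 1 library left out, -0.43 in the FPKM table). The median difference of knockout minus littermate was 0.35 on DSS and 1.80 on water. Nos1, the nitric oxide synthase of inhibitory motor neurons, had 731, 641 and 3149 normalized counts in KO_DSS, 1819, 564 and 4434 in KO_H2O, 1549, 1275 and 1313 in WT_DSS and 199.8, 631 and 62.6 in WT_H2O, with an interaction of -3.32 ± 1.24 and -1.93 in the FPKM table. KO_H2O 3 and WT_H2O 3 were the extremes, and the WT_DSS libraries were close together. The list score was -0.10, -0.82 and 1.04 in KO_DSS, 0.74, 0.16 and 2.03 in KO_H2O, -0.13, -0.06 and -0.48 in WT_DSS and -0.84, 0.55 and -2.08 in WT_H2O. Smooth muscle genes, which sit in the same muscle layers, had scores of 0.17, 0.17 and 0.95 in KO_H2O and 0.44, 1.18 and -1.16 in WT_H2O. In both lists KO_H2O 3 was the highest of KO_H2O, WT_H2O 2 the highest of WT_H2O and WT_H2O 3 the lowest water library. WT_H2O 2 was the highest water library for smooth muscle, but for the neuronal list it lay below KO_H2O 3 and KO_H2O 1. The part of the muscle signal in the neuronal values was not tested. Thy1, a surface protein of neurons, T cells and fibroblasts that stands in the fibroblast list, had an interaction of -1.93 ± 0.62 and -1.27 in the FPKM table.

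**Figure D4:**
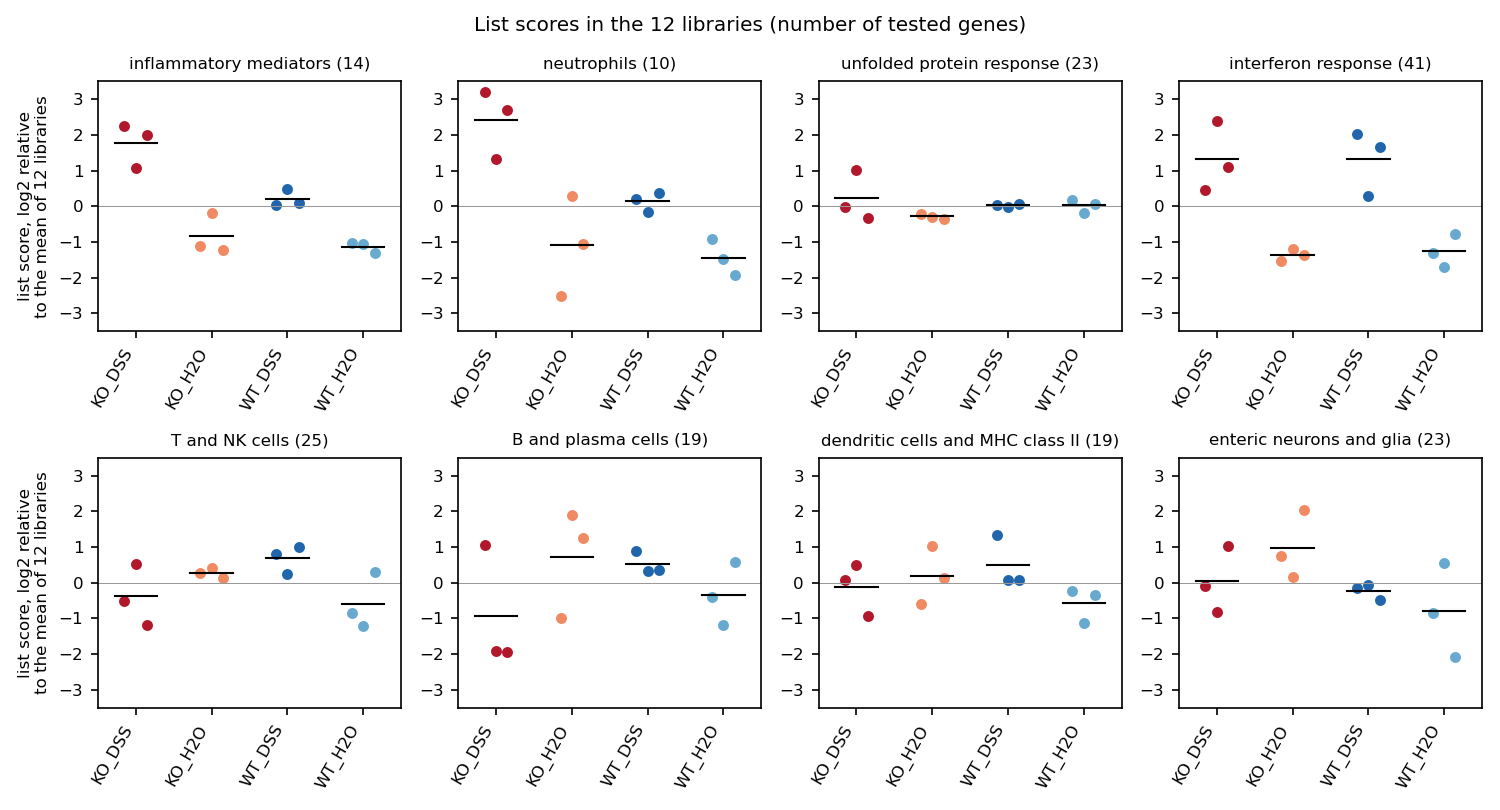
Score of 8 gene lists (vertical axis, mean log2 level of the list relative to the mean of the 12 libraries) in KO_DSS, KO_H2O, WT_DSS and WT_H2O (horizontal axis), with 1 point per library and a bar at the group mean. Inflammatory mediators score highest in KO_DSS (2.25, 1.07 and 2.001), interferon response genes overlap between KO_DSS and WT_DSS, and B and plasma cells are spread widely within groups.

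Other named genes with a lower response in knockout mice were spread over functions. Igfbp2, a binding protein of insulin-like growth factors, had 79.0, 12.2 and 45.4 normalized counts in KO_DSS, 310.4, 357 and 495 in KO_H2O, 80.8, 38.2 and 149.9 in WT_DSS and 75.9, 134 and 37.9 in WT_H2O. KO_H2O stood above all other 9 libraries, which overlapped, for an interaction of -3.47 ± 0.97 and -2.22 in the FPKM table. The same shape was found for Fbxl2, a subunit of a ubiquitin ligase, with 131, 178 and 234 in KO_H2O and between 39.5 and 97.2 elsewhere (interaction -2.24 ± 0.54, or -0.90 in the FPKM table). It was also found for Aff3, a nuclear protein of lymphoid cells, with 147, 313 and 357 in KO_H2O and between 32.9 and 105 elsewhere (interaction -2.47 ± 0.60, or -0.92 in the FPKM table). Dtx1, a ubiquitin ligase of the Notch pathway, had an interaction of -2.12 ± 0.56 (-0.84 in the FPKM table), and Ano2, a calcium-activated chloride channel, had -2.57 ± 0.67 (-0.49 in the FPKM table). Rcan3, a regulator of calcineurin, had -3.34 ± 0.92. Oxsm, an enzyme of mitochondrial fatty acid synthesis, had 507, 409 and 471 normalized counts in KO_DSS, 536, 710.4 and 756 in KO_H2O, 856, 1024 and 805 in WT_DSS and 528, 473 and 738 in WT_H2O, with DSS below water in knockout mice and above it in littermates. Its interaction was -1.16 ± 0.33, with the narrowest interval of the 12 (-1.87 to -0.45).

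The smallest unadjusted p of all 23263 genes, 0.000113, belonged to mt-Td, the mitochondrial gene for the aspartate tRNA. It had 0.806, 1.36 and 3.13 normalized counts in KO_DSS, 0.867, 0.527 and 1.92 in KO_H2O, 208, 89.7 and 270.1 in WT_DSS and 0.925, 1.38 and 0 in WT_H2O. Reads were thus found in WT_DSS and next to none in the other 9 libraries, for an interaction of -6.34 ± 1.12. In the FPKM table it passed (log2 -6.09, limma adjusted p = 0.00183). The gene is 70 bases long and lies on the mitochondrial genome between mt-Co1 and mt-Co2, whose start it reaches to within a few bases. The sequence is printed to show how short the gene is (GENCODE annotation of GRCm38, chrM:6942-7011, plus strand).
mt-Td: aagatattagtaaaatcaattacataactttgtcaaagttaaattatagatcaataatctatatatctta
Of 22 mitochondrial tRNA genes listed, 19 were tested, and 1 of them, mt-Td, had an unadjusted p under 0.05. The neighbours did not share its pattern: the interaction was -0.75 ± 0.73 for mt-Co1 and -0.69 ± 0.69 for mt-Co2. Another tRNA gene, mt-Ts2, was also either present or nearly absent, but across the groups, with 0.806, 1.36 and 454 normalized counts in KO_DSS, 182, 0.527 and 282 in KO_H2O, 0.841, 180.2 and 0.824 in WT_DSS and 0.925, 108 and 161 in WT_H2O. The counting rule and the strand setting are not stated in those sources.

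The next smallest p, 0.000337, belonged to a gene listed in the table under the symbol Map2k7 that the GENCODE annotation of GRCm38 calls Gm49320 (chromosome 8, 4238865 to 4251423, plus strand) and that overlaps the kinase gene Map2k7 itself (4238740 to 4247897, plus strand). Gm49320 had 0 reads in all KO_DSS libraries, 327, 179 and 435 normalized counts in KO_H2O, 24.4, 4.15 and 0 in WT_DSS and 13.9, 11.7 and 13.2 in WT_H2O. The means of the other groups, 0 in KO_DSS, 9.52 in WT_DSS and 12.9 in WT_H2O, together average under the filter of 10. Gm49320 was therefore tested only because of its level in KO_H2O, and its rank by p supports nothing. The fitted interaction of -6.75 ± 1.36 depends on the pseudocount, since a whole group was at 0, and it was -2.11 in the FPKM table, where it passed (limma adjusted p = 0.0133). Map2k7 itself had 1362, 734 and 1527 in KO_DSS, 609.6, 563 and 520.5 in KO_H2O, 716, 1292 and 1272 in WT_DSS and 541, 766 and 722 in WT_H2O, with an interaction of 0.37 ± 0.44. Reads of these genes cannot be told apart where they overlap, so the values of Gm49320 are uncertain. Such presence and absence within a group was not rare: 328 tested genes had under 3 reads in one library and at least 100 in another of the same group, 176 of them in KO_DSS, 61 in KO_H2O, 113 in WT_DSS and 45 in WT_H2O.

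Mitochondrially encoded proteins gave 13 negative interactions of 13, while 47.5% of all genes were positive, and their median was -0.67. The sign rested on KO_H2O 3, whose list score was 1.39 against -1.03 and -1.02 in the other KO_H2O libraries, and the median without it was 0.16. The nuclear-encoded subunits of the respiratory chain had a median of 0.06 over 33 genes (-0.07 to 0.26 with 1 library left out).

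Few genes had opposite directions in the genotypes without overlap of groups. In 12 genes (0.0516% of those tested) all DSS libraries lay above all water libraries in knockout mice and below them in littermates, and in 21 genes (0.0903%) it was the reverse. By comparison, 1929 genes (8.29%) had DSS libraries above water libraries in both genotypes and 2140 (9.2%) below them in both. Of the 33 opposite genes, 16 had a symbol and a group mean of at least 50. These include CT033761.1, a clone name for a processed pseudogene that GENCODE calls Gm2981. Besides Tnfrsf12a, those with DSS above water in knockout mice were Mrpl36, a protein of the mitochondrial ribosome (0.90 ± 0.32), Asna1, which inserts proteins into membranes (0.72 ± 0.28), Pes1, a ribosome assembly factor (0.59 ± 0.25), Amd2, which encodes S-adenosylmethionine decarboxylase (0.60 ± 0.31), Cnot11, of the CCR4-NOT complex (0.40 ± 0.27), Zfhx2os (1.95 ± 0.71) and CT033761.1 (1.72 ± 0.64). Besides Ets1, Themis, Aff3 and Oxsm, those with DSS below water in knockout mice were Spock3, a matrix proteoglycan (-2.78 ± 0.89), Ermard (-0.86 ± 0.30), Arhgap4, a GTPase-activating protein (-1.91 ± 0.73), and Fgd3, an exchange factor for Cdc42 (-0.66 ± 0.32). In the FPKM table the values were 0.60 for Zfhx2os, -0.62 for Spock3, -0.55 for Ermard, -0.77 for Arhgap4 and -0.43 for Fgd3, and Arhgap4 had -1.16 without KO_DSS 3.

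The pathway of the deleted enzyme had small, mostly positive values. Of 31 tested genes of glutamine and glutamate metabolism, 25 had positive interactions, against 47.5% of all genes, with a median of 0.26 (0.19 to 0.36 with 1 library left out). None passed, and 5 had an unadjusted p under 0.05, against 2.75% of all genes. Asns, which makes asparagine from aspartate with glutamine as nitrogen donor, had 1391, 1231 and 1088 normalized counts in KO_DSS, 734, 590.2 and 489.7 in KO_H2O, 984, 693 and 844 in WT_DSS and 854, 679 and 669 in WT_H2O. KO_DSS lay above all other libraries, and the interaction was 0.85 ± 0.31. Gpt2, the mitochondrial alanine transaminase, had 329, 247 and 182 in KO_DSS, 962, 978 and 659 in KO_H2O, 464, 536 and 387 in WT_DSS and 837, 784 and 763 in WT_H2O. DSS lay below water in both genotypes, with responses of -1.79 in knockout mice and -0.79 in littermates, and the interaction was -1.001 ± 0.37, or -0.66 in the FPKM table. Psat1, of serine synthesis (1.09 ± 0.45), Odc1, of polyamine synthesis (0.77 ± 0.29), and Aldh18a1, of proline synthesis (0.75 ± 0.34), were the other members at an unadjusted p under 0.05. The glutamine transporter Slc1a5 had an interaction of -0.27 ± 0.38 with a 95% interval of -1.09 to 0.56.

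The interferon response was strong in both genotypes. In this list, 36 of 41 genes rose with DSS on average, against 13% of all genes. The median response was 2.59 in knockout mice and 2.41 in littermates, and the median interaction was 0.10 with 0 genes at an unadjusted p under 0.05. The list score was 0.44, 2.40 and 1.10 in KO_DSS, -1.53, -1.20 and -1.36 in KO_H2O, 2.02, 0.28 and 1.66 in WT_DSS and -1.32, -1.69 and -0.79 in WT_H2O, so the DSS libraries of either genotype were widely spread. Leaving out 1 library gave medians of -0.36 to 0.52. Ifit3, an antiviral protein, had 471, 1757 and 1031 normalized counts in KO_DSS, 117, 127 and 99.9 in KO_H2O, 1119, 305 and 769 in WT_DSS and 103, 89.4 and 283 in WT_H2O, with an interaction of 0.84 ± 0.82 and a 95% interval of -0.95 to 2.62.

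Over all 32 lists, 743 of 807 entries were tested, which are 720 distinct genes, and 0 passed for the interaction. The median was positive in 22 lists, and 17 lists kept the sign of their median when any 1 library was left out. The other lists are given by their median, with the range over fits without 1 library in parentheses. Antimicrobial defence had 0.89 (0.62 to 1.08) and 0.55 in the FPKM table. Mast cells and eosinophils had 0.36 (-0.27 to 0.86) and immediate early and heat shock genes 0.31 (0.04 to 0.51). Ribosomal proteins had 0.25 (-0.06 to 0.57), glycolysis and hypoxia 0.21 (0.04 to 0.31) and lipid and xenobiotic metabolism -0.28 (-0.77 to -0.02). Among epithelial lists, goblet cells had 0.16 (-0.01 to 0.33), colonocytes 0.11 (-0.18 to 0.23), enteroendocrine cells 0.12 (-0.03 to 0.62) and tuft cells -0.09 (-0.76 to 0.20). Among stromal lists, smooth muscle had 0.03 (-0.42 to 0.67), fibroblasts -0.17 (-0.51 to 0.27), endothelium -0.53 (-0.998 to -0.16) and adipocytes -0.02 (-0.40 to 0.32). Fits without KO_DSS 3 alone gave medians of 0.86 for mast cells and eosinophils, 0.52 for ribosomal proteins, 0.28 for goblet cells, 0.21 for colonocytes, 0.51 for enteroendocrine cells, -0.76 for tuft cells. For stromal lists they gave -0.17 for smooth muscle, -0.51 for fibroblasts, -0.998 for endothelium and -0.40 for adipocytes. For pathway lists they gave 0.26 for the respiratory chain, 0.21 for the interferon response and 0.31 for glycolysis.

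**Figure D5:**
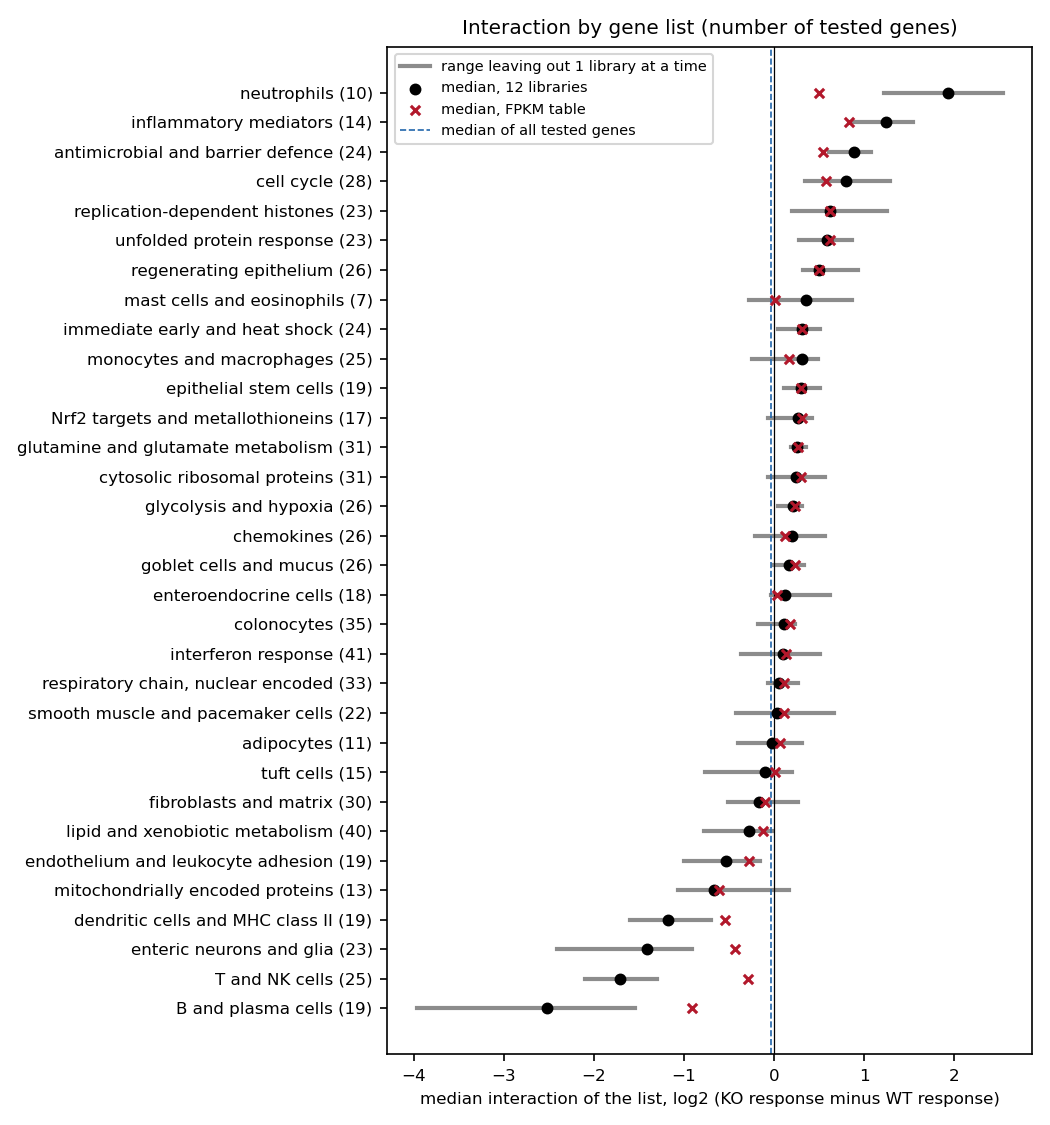
Median interaction of each of 32 gene lists (horizontal axis, log2 difference of responses, knockout minus littermate), one list per line with its number of tested genes. Black points are medians over all 12 libraries, grey bars the range when 1 library is left out, crosses the medians in the FPKM table and the dashed line the median of all genes (-0.03). On the normalized count scale neutrophils (1.93) and B and plasma cells (-2.52) are at the ends, and the crosses lie closer to 0 for lists of rare genes.

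Some members of these lists had single values worth setting beside the medians. Dmbt1, a mucosal scavenger protein and the most abundant antimicrobial gene, had an interaction of 1.42 ± 0.59. Agr2, a disulfide isomerase of goblet cells, had 1.003 ± 0.54 (1.56 without KO_DSS 3), with DSS below water in littermates (-0.95) and near it in knockout mice (0.06). Bcas1, an epithelial gene of the goblet list, had -1.63 ± 0.70. Pck1, the gluconeogenic enzyme that stands in the adipocyte list and is also made by epithelium, fell with DSS on average (log2 change -2.18, limma adjusted p = 0.000502), with responses of -2.82 in knockout mice and -1.55 in littermates, with an interaction of -1.27 ± 0.47. Cyp2s1, a cytochrome P450 of epithelia, had 1184, 1554 and 1603 normalized counts in KO_DSS, 3753, 2500.4 and 2669 in KO_H2O, 3479, 2186 and 2216 in WT_DSS and 2420.1, 2853 and 3617 in WT_H2O. KO_DSS lay below the other 9 libraries, and the interaction was -0.84 ± 0.36. Pfkfb3, which drives glycolysis, rose with DSS on average (log2 change 1.77, limma adjusted p = 0.00554) and had an interaction of 1.51 ± 0.73. Egr3, an immediate early gene, had -3.81 ± 1.18 and -0.36 in the FPKM table. Vwf and Tie1, both of endothelium, had -1.55 ± 0.70 and -1.06 ± 0.46 (-0.68 and -0.58 in the FPKM table).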

How the data were processed

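RNA-seq of colon tissue was analysed for 12 libraries in 4 groups of 3. The authors deposited log2 normalized counts and log2 FPKM values, each with 1 added before the logarithm, judging by the values in the deposited tables. STAR and the builds GRCm38 and mm10 are named per the submitters' processing notes; the counting tool, strand setting and annotation were not given in those notes or labels. After the logarithm was undone, 100% of the deposited count values were whole multiples of 1 step per library (tolerance 0.01 reads), which gave the reads per library, 14.7 to 41.2 M (M, mega). There were 4 columns of values that matched no label, and they were not used.

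Genes whose normalized count averaged 10 or more were fitted with limma 3.58.1 (R 4.3.3) over all 12 libraries, with 1 mean per group and a trended prior variance, and p-values were adjusted by the Benjamini-Hochberg method over 23263 genes with a threshold of 0.05. The values are on the log2(normalized count + 1) scale, which understates changes of low genes. The interval around a value covers the spread between libraries. A group at 0 has no fold change that can be read from the fit. Named genes were Glul and Lyz2, the 12 genes in either direction with the smallest interaction p that had a symbol and a group mean of at least 50, and 2 members per list, taken by smallest p. Further members of the lists were named after their values were seen, as were the genes with opposite directions. Some genes that the rule names are not reported here. The contrast, the lists and the alternatives were chosen with earlier results of these data known. Alternatives were the pseudocount, the filter, the scaling, the FPKM table, sample weights, a replicate block and leaving out each library. Numbers in the titles do not pair the libraries.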

Additional observations from a re-analysis of the deposited data

How the results depend on the processing

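Over all other settings, 60 values of the main results (the counts of called genes and the Glul interaction) kept their direction and side of the threshold, 4 moved and 5 reversed. Of the values of named genes, lists and DSS-responsive genes, 2627 kept them, 22 moved, 4 reversed and 2 came to pass the test, these being mt-Td and Gm49320 in the FPKM table. Both genes had reached the filter only through the group where they were high. The number of genes called for the interaction was 0 except in the FPKM table, where it was 2, and when 1 library was left out, where it lay between 0 and 2. The number called for the average DSS response lay between 4150 and 6903 when 1 library was left out. The Glul interaction was 0.18 with a replicate block and 0.13 with sample weights, and -0.77 to 0.23 when 1 library was left out. The Lyz2 interaction was -0.18 with a replicate block and -0.25 to 0.97 when 1 library was left out, and Lgr5 had 0.022 in the FPKM table. The cause of these changes was not tested. Deviations of same-numbered libraries had correlations between -0.18 and 0.24, so the numbers were not taken as pairs; with the replicate block 0 genes passed for the interaction and 4710 for the average DSS response. With sample weights 8558 genes passed for the average response. Scaling moved the median interaction of all genes by less than 0.1 on the log2 scale. The edgeR and DESeq2 alternatives were not run; limma voom on the recovered reads was chosen in their place after seeing the data. With 3 libraries a group, precision is limited by their number.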
